A study of Mus musculus with 2 samples.

Results

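The nuclear genes of the mitochondrial respiratory chain were examined in mouse R1 ES cells after 72 h in medium lacking LIF, by the complex that their products belong to and by tissue isoform. They were chosen by symbol, as the genes whose names begin with the letters used for subunits of complexes I to V (Ndufa, *Ndufab1*, Ndufb, Ndufc, Ndufs, Ndufv, Sdh, Uqcr, Cox4 to Cox8 and Atp5), with the entry of highest mean RPKM kept for each symbol. This gave 85 of the 21935 gene symbols in the data, with 36 genes of complex I, 4 of complex II, 8 of complex III, 20 of complex IV and 17 named for complex V. Of these, 82 had an RPKM (reads on a transcript scaled to its length and to the aligned reads of the library) above 1 in at least 1 library. *Ndufa4* and its paralog *Ndufa4l2* are placed with complex IV, where the protein of *Ndufa4* is now assigned. *Atp5s* and *Atp5sl* carry the name of the ATP synthase without being counted among its subunits.

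The shKdm5b ES cells carried a short hairpin RNA against *Kdm5b*, which encodes a demethylase of histone H3 lysine 4, and the shLuc ES cells carried one against luciferase as the control. Both hairpins were delivered in the lentiviral vector pGreenPuro under puromycin selection, and whether the selected cells were a clone is not stated in the sources used here. The cells of both conditions had been maintained on irradiated fibroblasts with LIF, the cytokine that sustains self-renewal, and were then grown without it. For growth without LIF the methods name gelatin coated or low attachment dishes. Polyadenylated RNA was sequenced from 1 library per condition. No difference below therefore has a replicate check, no p-value is given, and effects of condition and of library cannot be told apart. All intervals are 95% exact Clopper-Pearson intervals on the reads and cover counting error only.

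The respiratory chain passes electrons from NADH (complex I) and succinate (complex II) through ubiquinone to complex III, then through cytochrome c to complex IV, which reduces oxygen. Complexes I, III and IV pump protons across the inner mitochondrial membrane, and complex V, the ATP synthase, uses the returning protons to make ATP. Most subunits are encoded in the nucleus, while a few hydrophobic ones of complexes I, III, IV and V are encoded by mitochondrial DNA. The aligned reads held 0 mitochondrial reads in either library, so the mitochondrially encoded subunits were not analysed here. ES cells use glycolysis to a large extent and have few mature mitochondria. Respiration was not measured here.

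The libraries held 78172698 aligned reads (shLuc) and 72702698 (shKdm5b), and the median of the 82 genes had 2587 and 3452 reads. *Kdm5b* itself had 104 RPKM (51378 reads) in shLuc and 3.01 RPKM (1377 reads) in shKdm5b, or 2.88% of the control level. All 10 ES cell markers examined were above 1 RPKM in both libraries, at 8.87 to 1096 RPKM in shLuc and 10.2 to 1651 in shKdm5b. *Pou5f1* differed most among them (619 and 182 RPKM). By the thresholds given below, 1 of the 10 was higher in shKdm5b (*Dppa5a*), 2 were lower (*Pou5f1* and *Esrrb*) and 7 lay within. That is 10% and 20%, against 16.3% and 32.0% of all genes. Of 11 fibroblast markers, 10 were found and 1, *Thy1*, exceeded 1 RPKM (4.08 and 4.59), while *Col1a1* and *Col1a2* stayed under 0.5 RPKM. The fibroblast markers summed to 5.50 RPKM in shLuc and 6.43 RPKM in shKdm5b.

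The promoter sequences of 4 genes are shown because these genes had the highest and lowest ratios of shKdm5b to shLuc in complexes I and III among those with a promoter window at hand. Each window runs from 250 bases before to 50 after the annotated start (RefSeq, GRCm38.p6), and capitals mark matches, on either strand, to the letters GCGCATGC of the NRF1 motif or CCGGAAGT of the GABPA motif, factors known to bind many promoters of respiratory genes. A match is a description of the letters and not a measured site.
Ndufa6 (highest of complex I, chr15:82354242-82354541, minus strand): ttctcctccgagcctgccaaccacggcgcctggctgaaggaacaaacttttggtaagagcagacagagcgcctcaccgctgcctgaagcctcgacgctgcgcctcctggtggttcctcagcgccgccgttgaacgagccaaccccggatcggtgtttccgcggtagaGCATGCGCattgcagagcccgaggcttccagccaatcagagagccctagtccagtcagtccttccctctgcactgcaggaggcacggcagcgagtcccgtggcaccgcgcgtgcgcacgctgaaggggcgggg
Ndufv1 (lowest of complex I, chr19:4012706-4013005, minus strand): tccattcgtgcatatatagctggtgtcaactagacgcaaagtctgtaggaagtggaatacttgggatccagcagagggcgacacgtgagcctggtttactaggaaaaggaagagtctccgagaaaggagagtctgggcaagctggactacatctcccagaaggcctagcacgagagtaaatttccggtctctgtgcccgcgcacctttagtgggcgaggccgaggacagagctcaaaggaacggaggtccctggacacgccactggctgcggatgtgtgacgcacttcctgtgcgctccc
Uqcrh (highest of complex III with a window, chr4:116075021-116075320, minus strand): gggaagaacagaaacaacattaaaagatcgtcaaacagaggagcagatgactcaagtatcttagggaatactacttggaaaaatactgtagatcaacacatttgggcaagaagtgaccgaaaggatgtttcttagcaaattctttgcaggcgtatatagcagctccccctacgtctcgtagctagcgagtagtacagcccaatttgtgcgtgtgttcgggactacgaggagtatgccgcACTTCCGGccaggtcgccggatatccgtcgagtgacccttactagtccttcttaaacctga
Uqcrc1 (lowest of complex III, chr9:108936398-108936697, plus strand): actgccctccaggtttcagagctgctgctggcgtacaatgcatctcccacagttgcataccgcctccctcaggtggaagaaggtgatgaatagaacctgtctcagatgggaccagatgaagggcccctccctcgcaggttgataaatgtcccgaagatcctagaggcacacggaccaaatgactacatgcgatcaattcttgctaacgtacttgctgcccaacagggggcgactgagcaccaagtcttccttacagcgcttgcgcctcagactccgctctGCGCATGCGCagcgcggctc
The *Ndufa6* and *Uqcrc1* windows, from genes with opposite differences, both held the NRF1 letters, and the *Ndufv1* window held none of the letters searched. A window was found for 70 of the 85 genes. The NRF1 letters were in 10 of these (14.3%) and in 2.80% of 27025 gene windows of the same length. The letters AAGATGGC of the YY1 motif were in 10 of the 70 (14.3%) and in 2.88% of all windows, and those of GABPA were in 5 (7.14%) against 4.0%. All windows were counted whether or not the gene was expressed, and they were not matched to the respiratory chain windows in GC content. Among the genes with a window that were higher in shKdm5b by the thresholds given next, 5 of 38 held the NRF1 letters, against 4 of 28 of those within the thresholds and 1 of 3 of those lower. The letters of none of the 3 motifs contain those of another.

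A gene was called higher or lower in the shKdm5b library when it differed by more than 1.5-fold, a log2 ratio beyond 0.58 on the log2(RPKM + 0.1) scale, with an RPKM above 1 in at least 1 library. This scale understates the difference of genes with low RPKM. By this rule 43 of the 82 expressed respiratory chain genes (52.4%) were higher in shKdm5b, 4 were lower and 35 lay within the thresholds. Over all 11804 genes tested, 16.3% were higher and 32.0% were lower. The median log2 ratio was 0.64 for the respiratory chain genes (quartiles 0.10 and 0.95) and -0.21 for all genes. The count of higher genes depended on transcript length and GC content: with fitted curves of the log2 ratio over both taken out, 16 of the 82 were higher and 4 lower, against 15.1% and 16.6% of 11535 genes, and the median was 0.24. With the libraries scaled to a median log2 ratio of 0, a shift of 0.17, the split was 48 higher and 2 lower, against 22% and 25.5% of all genes. In bulk RNA, fewer cells with a transcript and less of it per cell cannot be told apart.

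Summed over the 85 genes, the level was 5554 RPKM in shLuc and 7630 RPKM in shKdm5b, which is 1.99% and 2.50% of the summed RPKM of all genes. The counting intervals of the log2 ratio excluded 0 for 80 of the 82 genes. At this depth the intervals were narrow, with a median half-width of 0.07, so small differences exclude 0 too. That width is less than the shift of 0.17 that scales the median log2 ratio to 0. For 39 of the 43 higher genes and 3 of the 4 lower genes they lay wholly beyond the threshold. The lower genes included *Ndufv1*, *Uqcrc1* and *Atp5g1*, of complexes I, III and V.

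**Figure D1:**
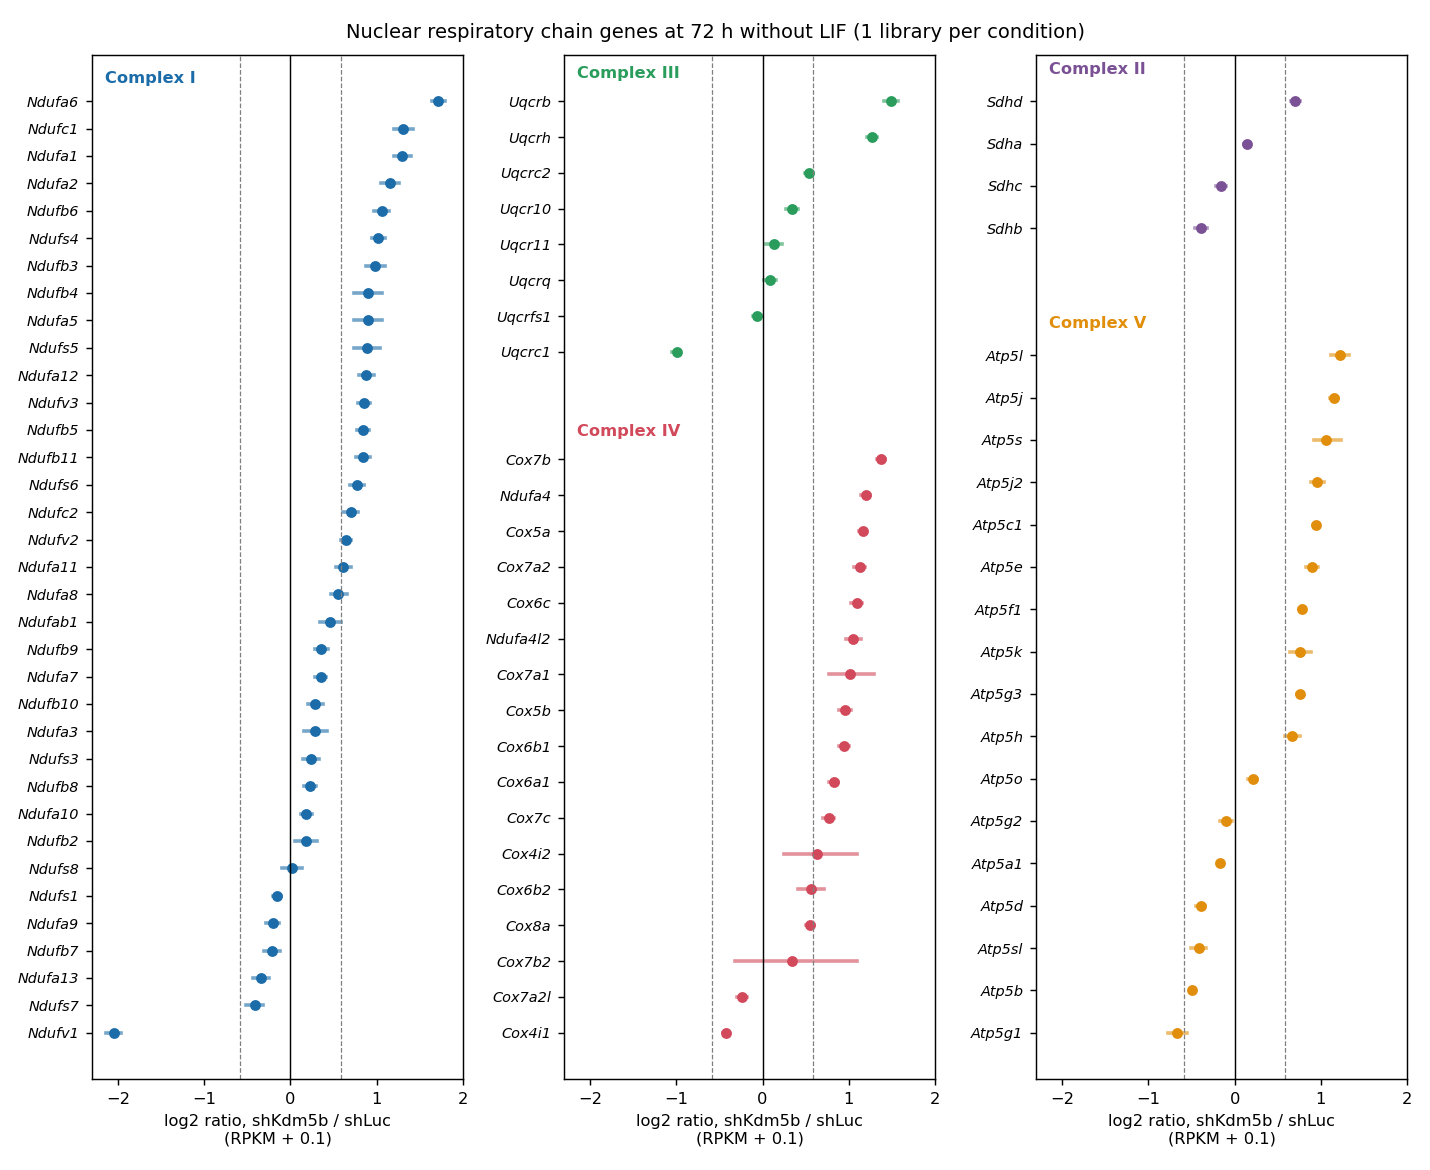
Log2 ratio of shKdm5b to shLuc (x axis, on the RPKM + 0.1 scale) for 81 of the 82 genes with an RPKM above 1, in rows by complex. Points are single pairs of libraries, bars are 95% counting intervals, and dashed lines mark a 1.5-fold difference. Complex IV has 12 points beyond the right dashed line and 0 beyond the left one, while *Ndufv1* stands alone at -2.04.

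In complex I, 18 of 36 genes were higher and 2 were lower, with a median log2 ratio of 0.58. The core subunits, which hold the flavin and the iron-sulfur clusters and are conserved from bacteria, had 1 of 7 genes higher and 2 lower (median -0.15, which becomes 0.01 when the libraries are scaled to a median of 0). The accessory subunits, which surround and stabilise the core, had 17 of 29 higher and 0 lower (median 0.77). The summed level of the core genes was 256 RPKM in shLuc and 208 in shKdm5b, and that of the accessory genes was 1032 and 1675. Core transcripts were also longer, with a median length of 1472 bases against 560. With the length and GC curves taken out, the medians were -0.22 (0 higher and 1 lower) and 0.26 (6 higher and 0 lower). Over all genes tested, 16.3% were higher and 32.0% lower, and 15.1% and 16.6% with these curves taken out. These shares also stand beside the counts of each complex below. By the deposited RPKM the core genes, with 14.3% higher and 28.6% lower, lay near the shares of all genes.

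*Ndufv1* encodes the subunit that binds FMN and takes electrons from NADH. It had 43.8 RPKM (5383 reads) in shLuc and 10.6 RPKM (1208 reads) in shKdm5b, a log2 ratio of -2.04 (interval -2.14 to -1.96). This was the lowest ratio of the 82 genes, and it remained the lowest, at -1.52, with the length and GC curves taken out. None of the 50-base windows of its transcript (chr19:4007384-4012806, minus strand, 10 exons, GRCm38) is shared with another annotated gene, and no annotated gene overlaps it. Its partner *Ndufv2*, a carrier of an iron-sulfur cluster in the same NADH-oxidising module, was the 1 higher core gene, with 33.8 and 52.7 RPKM (log2 ratio 0.64, interval 0.58 to 0.70). The interval of *Ndufv2* reaches the threshold, and its ratio was 0.07 with the curves taken out. The third core gene of that module, *Ndufs1*, differed little, with 41.1 and 36.9 RPKM (log2 ratio -0.15).

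Among the core subunits of the arm that hands electrons to ubiquinone, *Ndufs7*, whose product holds the last iron-sulfur cluster before ubiquinone, had 32.4 and 24.3 RPKM (log2 ratio -0.41). In the same arm, *Ndufs3* had 24.1 and 28.4 RPKM (log2 ratio 0.23) and *Ndufs8* had 17.4 and 17.6 RPKM (log2 ratio 0.01), so both lay close to equal levels.

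The accessory gene with the largest difference was *Ndufa6*, whose product is a small subunit of the LYR family at the foot of the peripheral arm. It had 50.5 RPKM (2209 reads) in shLuc and 166 RPKM (6742 reads) in shKdm5b (log2 ratio 1.71, interval 1.64 to 1.78). This was the highest ratio of the 82 genes. Like *Ndufv1*, *Ndufa6* shares none of its 50-base windows with another gene and overlaps none. With the curves taken out its ratio was 1.34, no longer the highest, under those of *Ndufa11* (1.41) and *Ndufa4l2* (1.36). By the deposited RPKM *Ndufc1* and *Ndufa1*, which encode single-span subunits of the membrane arm, followed *Ndufa6* among the accessory genes. *Ndufc1* had 31.0 and 76.8 RPKM (log2 ratio 1.31), and *Ndufa1* had 29.5 and 72.5 RPKM (log2 ratio 1.29). The lowest accessory gene was *Ndufa13*, also known as Grim19, with 22.9 and 18 RPKM (log2 ratio -0.34), which does not pass the threshold. By mean level *Ndufa7*, at 101 and 129 RPKM, was the most abundant complex I transcript, followed by *Ndufa6* and then *Ndufv3* at 64.4 and 116 RPKM.

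**Figure D2:**
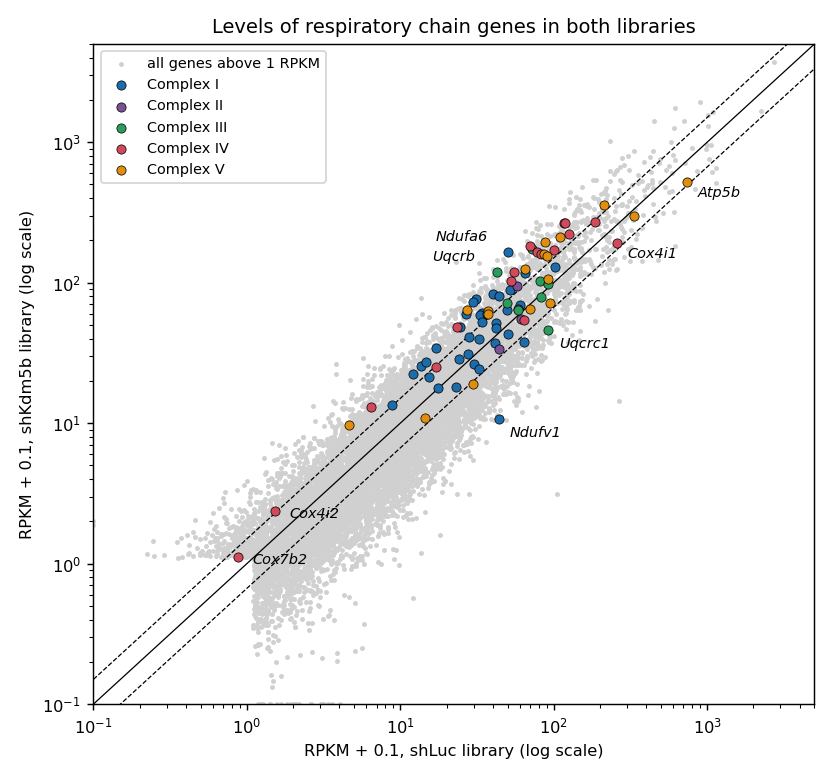
RPKM + 0.1 in the shLuc library (x axis) against the shKdm5b library (y axis), both on log scales, for all genes above 1 RPKM (grey) and the respiratory chain genes (coloured by complex). The solid line marks equal levels and dashed lines 1.5-fold. Most of the coloured points, 63 of 82, lie above the solid line, and the 4 lower genes, with *Ndufv1* farthest (43.8 and 10.6 RPKM), lie below the lower dashed line. Of all 11804 genes above 1 RPKM, 4674 lie above the solid line, which is drawn for RPKM without further scaling.

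Complex II, succinate dehydrogenase, belongs to both the chain and the TCA cycle, and by the deposited RPKM the median log2 ratio of its genes was the nearest to 0 of the 5 complexes (-0.01, which becomes 0.16 with the libraries scaled to a median of 0). The membrane anchor *Sdhd* was the 1 higher gene of 4, with 57.8 and 94.2 RPKM (log2 ratio 0.70, and 0.56 with the curves taken out). The other anchor, *Sdhc*, had 61.5 and 55.1 RPKM (log2 ratio -0.16). The catalytic subunits also differed by less than 1.5-fold, with 58.5 and 64.6 RPKM for the flavoprotein *Sdha* (log2 ratio 0.14) and 43.8 and 33.4 RPKM for the iron-sulfur protein *Sdhb* (log2 ratio -0.39).

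Complex III had 2 of 8 genes higher (25%, against 16.3% of all genes) and 1 lower (12.5%, against 32.0%). Its median of 0.24 becomes -0.11 with the length curve and -0.01 with the length and GC curves taken out. The higher genes encode small subunits. *Uqcrb*, whose product lies near a ubiquinone site, had 42.5 and 119 RPKM (log2 ratio 1.48, interval 1.40 to 1.57). *Uqcrh*, the hinge protein that helps cytochrome c dock, had 72.2 and 174 RPKM (log2 ratio 1.27, interval 1.21 to 1.33). The ratio of *Uqcrb* was 0.22 with the curves taken out, while that of *Uqcrh*, at 0.60, still passed. Of the windows of 50 bases in *Uqcrb*, 43.4% are shared with other annotated genes, against 7.83% in *Uqcrh*.

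*Uqcrc1*, a large core protein of complex III facing the matrix, was the lower gene, with 91.5 RPKM (11843 reads) in shLuc and 45.8 RPKM (5516 reads) in shKdm5b (log2 ratio -0.996, interval -1.04 to -0.95). It lost its call with the curves taken out, at -0.39. Its partner *Uqcrc2* had 49.6 and 72.0 RPKM (log2 ratio 0.54). The transcripts of the pair thus differed in opposite directions, that of *Uqcrc2* by less than the threshold. With the curves taken out the ratio of *Uqcrc2* was 0.25, and 24.8% of its 50-base windows are shared with other genes. The Rieske iron-sulfur protein *Uqcrfs1*, an electron carrier of the complex, had 82.8 and 79.4 RPKM (log2 ratio -0.06). Among the other small subunits, *Uqcrq* had 91.5 and 97.1 RPKM (log2 ratio 0.09), *Uqcr10* had 81.6 and 103 RPKM (0.34) and *Uqcr11* had 58.1 and 63.8 RPKM (0.13). The catalytic cytochrome c1 gene, *Cyc1*, is not matched by the symbol rule and had 109 and 51.3 RPKM (log2 ratio -1.09).

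Complex IV, cytochrome c oxidase, had the highest median of the 5 complexes (0.94), with 12 of its 17 expressed genes higher and 0 lower. With the length and GC curves taken out its median was 0.32, still the highest of the 5, with 5 higher and 1 lower. The summed level was 1353 RPKM in shLuc and 2258 in shKdm5b. The highest ratio was that of *Cox7b*, a small membrane subunit, with 70.1 and 181 RPKM (log2 ratio 1.37, interval 1.32 to 1.42). *Ndufa4* had 116 and 266 RPKM (log2 ratio 1.20). *Cox5a*, a matrix-side subunit present in all tissues, had 118 and 265 RPKM (log2 ratio 1.16). The ratios of these 3 genes were 0.51, 0.03 and 0.55 with the curves taken out, under the threshold.

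Among the complex IV genes above 1 RPKM, the lowest ratios were those of *Cox4i1*, *Cox7a2l* and *Cox7b2*. *Cox4i1*, the usual isoform of a regulatory subunit that binds ATP, had 257 and 191 RPKM (log2 ratio -0.43) and was the most abundant complex IV transcript in shLuc. In shKdm5b the most abundant was *Cox8a*, with 185 and 270 RPKM (log2 ratio 0.55). *Cox7a2l*, which takes part in joining complexes III and IV into supercomplexes, had 64.0 and 54.3 RPKM (log2 ratio -0.24). Among the remaining genes *Cox7c*, *Cox5b* and *Cox6c* had log2 ratios of 0.77, 0.95 and 1.09. The ratio of *Cox7c* turned to -0.23 with the curves taken out, and 53.0% of its 50-base windows are shared with other genes.

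Several complex IV subunits have isoforms made mainly in heart and skeletal muscle, lung or testis, and these were compared with their widely expressed partners. The partner with wide expression was the more abundant in every pair in both libraries. Shares below are shares of the summed RPKM of a pair. Of the muscle isoforms, *Cox7a1* had 6.36 RPKM (182 reads) in shLuc and 13 RPKM (345 reads) in shKdm5b (log2 ratio 1.02). Its partner *Cox7a2* had 54.9 and 120 RPKM (log2 ratio 1.12), so the share of *Cox7a1* was 10.4% (interval 9.02 to 11.9) and 9.76% (8.83 to 10.8), with overlapping intervals. The other muscle isoforms were close to absent. *Cox6a2* had 1 and 0 reads beside 125 and 221 RPKM of *Cox6a1*, and at 3 reads, the limit taken for a count of 0, its share of the pair in shKdm5b would be 0.0283%. *Cox8b* had 0 reads in both, for which the same limit is 0.0572% and 0.0420% beside *Cox8a*. Of 10 heart and skeletal muscle markers, 2 exceeded 1 RPKM, and both were lower in shKdm5b, namely *Acta1* (4.10 and 1.68 RPKM) and *Tnni3* (1.68 and 0.90 RPKM). Together the 10 summed to 7.66 RPKM in shLuc and 4.03 RPKM in shKdm5b.

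The testis isoforms ranged from a sizeable share to traces. *Cox6b2* had 16.9 and 25 RPKM (610 and 839 reads, log2 ratio 0.56), and its partner *Cox6b1* had 82.9 and 160 RPKM (log2 ratio 0.94). The share of *Cox6b2* was thus 17.0% (15.7 to 18.2) in shLuc and 13.6% (12.7 to 14.4) in shKdm5b, a difference beyond counting error. With the length and GC curves taken out, the ratio of *Cox6b2* was 0.24 and that of *Cox6b1* was 0.32. The size of the shift in share thus depends on that step. *Cox7b2* had 0.777 and 1.01 RPKM from 33 and 40 reads, a share of 1.10% (0.756 to 1.53) and 0.556% (0.397 to 0.755) beside *Cox7b*. It passed the RPKM filter only through the shKdm5b library. *Cox8c* had 11 and 7 reads, 0.160% (0.0798 to 0.286) and 0.0748% (0.0301 to 0.154) of the pair with *Cox8a*, with overlapping intervals. Among 6 germ cell and testis markers, *Sycp3*, *Ddx4* and *Dazl* were higher in shKdm5b (9.70 and 49.8, 5.00 and 14.6, and 3.88 and 6.04 RPKM), while *Prm1*, *Prm2* and *Tnp1*, which mark later spermatids, had 0 reads. The part of germ cell transcripts in the testis isoform levels was not tested.

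The lung isoform *Cox4i2* and *Ndufa4l2* are both known as genes induced by low oxygen. *Cox4i2* had 1.43 and 2.27 RPKM (81 and 120 reads, log2 ratio 0.64, interval 0.25 to 1.10), and its share beside *Cox4i1* was 0.552% (0.439 to 0.686) and 1.17% (0.974 to 1.40). This was the 1 pair in which the isoform took a larger share in shKdm5b beyond counting error. *Ndufa4l2* had 23.3 and 48.3 RPKM (1751 and 3381 reads, log2 ratio 1.05), with a share of 16.7% (16.0 to 17.5) and 15.4% (14.9 to 15.9) beside *Ndufa4*. With the length and GC curves taken out, the ratio of *Ndufa4l2* was 1.36 and that of *Ndufa4* was 0.03, so the order within this pair depends on that step.

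**Figure D3:**
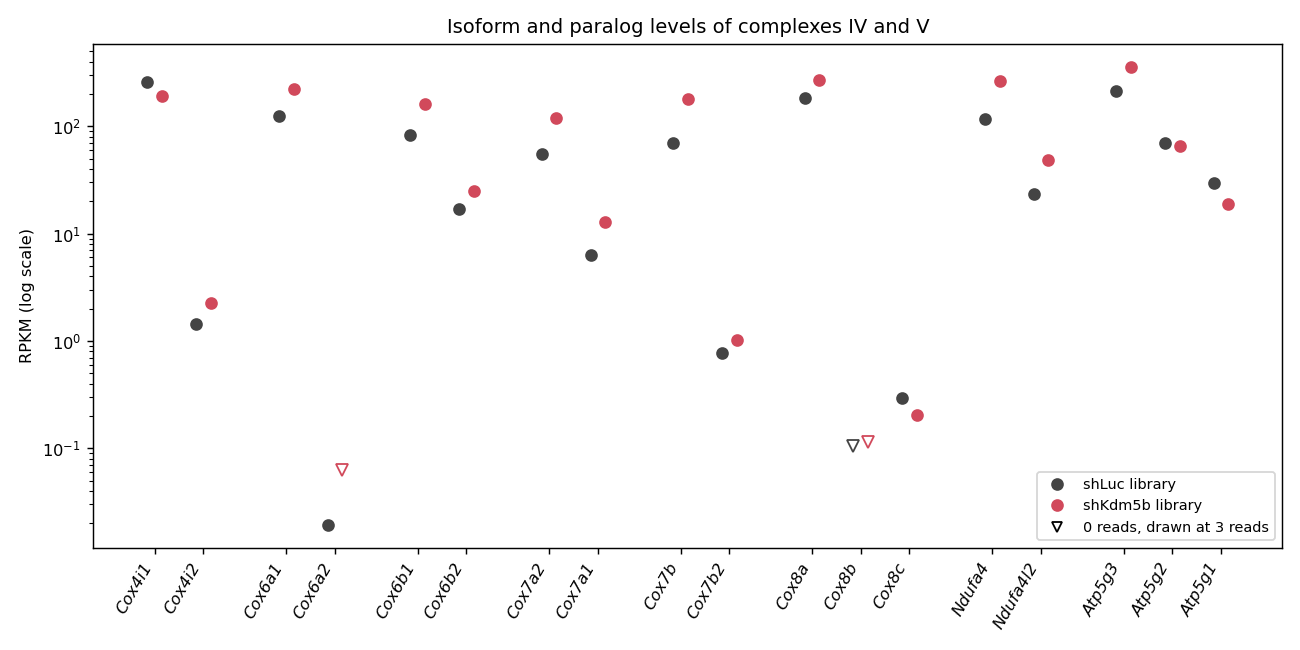
RPKM (log scale) of each isoform and its partner in the shLuc library (grey) and the shKdm5b library (red), with genes of 0 reads drawn as open triangles at the level of 3 reads. *Cox6a2*, *Cox8b* and *Cox8c* lie under 0.3 RPKM in both libraries, while *Cox6b2*, *Cox7a1* and *Ndufa4l2* lie between 6 and 50 RPKM.

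Complex V had 10 of 17 genes higher and 1 lower, with a median of 0.75 (0.24 with the length and GC curves taken out). The F1 head, which makes ATP, includes the most abundant transcript of all 85 genes. This was *Atp5b*, the catalytic beta subunit, which had 733 RPKM (107669 reads) in shLuc and 519 RPKM (70958 reads) in shKdm5b (log2 ratio -0.50, interval -0.51 to -0.48). *Atp5a1*, the alpha subunit, had 332 and 296 RPKM (log2 ratio -0.17), and neither passed the threshold. Of the central stalk subunits of F1, *Atp5c1* (gamma) and *Atp5e* (epsilon) were higher, with 110 and 212 RPKM (log2 ratio 0.94) and 85.9 and 160 RPKM (log2 ratio 0.90). *Atp5d* (delta) had 94.2 and 71.9 RPKM (log2 ratio -0.39). The summed level of the 5 F1 genes was 1355 RPKM in shLuc and 1259 RPKM in shKdm5b, and the median of -0.17 becomes 0.00 with the libraries scaled to a median of 0 and 0.10 with the curves taken out.

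The peripheral stalk, which holds the head still while the rotor turns, had 3 of 4 genes higher. *Atp5j* (subunit F6) had 87.6 and 195 RPKM (log2 ratio 1.15, and 1.10 with the curves taken out). *Atp5f1* (subunit b) and *Atp5h* (subunit d) had log2 ratios of 0.78 and 0.67, and *Atp5o*, the subunit that confers oligomycin sensitivity, had 91.7 and 106 RPKM (log2 ratio 0.21). Of these stalk genes 2 still passed with the curves taken out, *Atp5j* and *Atp5f1* (0.71), while *Atp5h* was at 0.08. The interval of *Atp5h* reaches the threshold. Of the 50-base windows, 50.5% in *Atp5h* and 38.7% in *Atp5f1* are shared with other genes. The small membrane subunits *Atp5l*, *Atp5j2* and *Atp5k* (g, f and e), which help the enzyme dimerise, were all higher by the deposited RPKM. Their log2 ratios were 1.22, 0.96 and 0.76, with 27.2 and 63.5 RPKM for *Atp5l*. With the curves taken out 1 of these 3 still passed, *Atp5k*, and 84.8% of the 50-base windows of *Atp5l* are shared with other genes. Of the genes named but not counted as subunits, *Atp5s* had 4.52 and 9.55 RPKM (log2 ratio 1.06) and *Atp5sl* had 14.3 and 10.7 RPKM (log2 ratio -0.41).

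The c ring of the ATP synthase is built from 1 mature protein that the genes *Atp5g1*, *Atp5g2* and *Atp5g3* all encode, with different import sequences. *Atp5g3* was the most abundant, with 212 and 358 RPKM (11259 and 17657 reads, log2 ratio 0.75). With the length and GC curves taken out its ratio was 0.24, under the threshold. *Atp5g2* had 69.9 and 65.2 RPKM (log2 ratio -0.10). *Atp5g1* was the lower one, with 29.8 and 18.8 RPKM (1877 and 1101 reads, log2 ratio -0.66, interval -0.77 to -0.56). Its other RefSeq entry, which was not kept, had 26.6 and 18.1 RPKM. The log2 ratio of that entry, -0.558, does not pass the threshold, so the call of *Atp5g1* depends on the entry kept. The summed level of the 3 genes was 312 RPKM in shLuc and 442 RPKM in shKdm5b. Of it, *Atp5g3* made up 68.0% and 81.0%, *Atp5g2* 22.4% and 14.8%, and *Atp5g1* 9.56% and 4.26%. Of the 50-base windows, 87.4% of those of *Atp5g2*, 66.0% of those of *Atp5g1* and 0% of those of *Atp5g3* are shared with other annotated genes. For the ChIP-Seq reads of the study the methods state that reads matching several sites were removed, and for the RNA-Seq reads the sources used here do not say, so the levels of *Atp5g1* and *Atp5g2* are uncertain. The lower call of *Atp5g1* held with the length and GC curves taken out (-0.65), but not with the libraries scaled to a median of 0 (-0.50).

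Transcript length and GC content moved with these differences. The respiratory chain transcripts were short, with a median length of 679 bases against 2644 bases for all expressed genes. Among transcripts of at most 600 bases, 26 of 36 respiratory chain genes were higher and 0 lower (median log2 ratio 0.89), while of the 409 other genes of this length 35.7% were higher and 36.4% lower (median 0.07). From 600 to 1000 bases the medians were 0.41 (22 genes) and 0.26 (710 genes), from 1000 to 2000 bases -0.06 (19 genes) and -0.14 (2859 genes), and above 2000 bases -0.15 (5 genes) and -0.27 (7744 genes). The difference from other genes of like length was thus widest among the shortest transcripts and narrower in the longer classes.

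By GC content, the respiratory chain genes had medians of 0.96, 0.81, 0.36 and -0.10 in transcripts of up to 48%, 48 to 52%, 52 to 56% and above 56% GC, where other genes had 0.24, -0.24, -0.54 and -0.80. In each of these classes the respiratory chain genes lay above the others. Spearman's rho of the log2 ratio with length was -0.43 over the 82 respiratory chain genes and -0.14 over 11804 genes, and with GC content it was -0.41 and -0.53 (11535 genes). These are correlations across genes of the same pair of libraries and not across replicates.

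**Figure D4:**
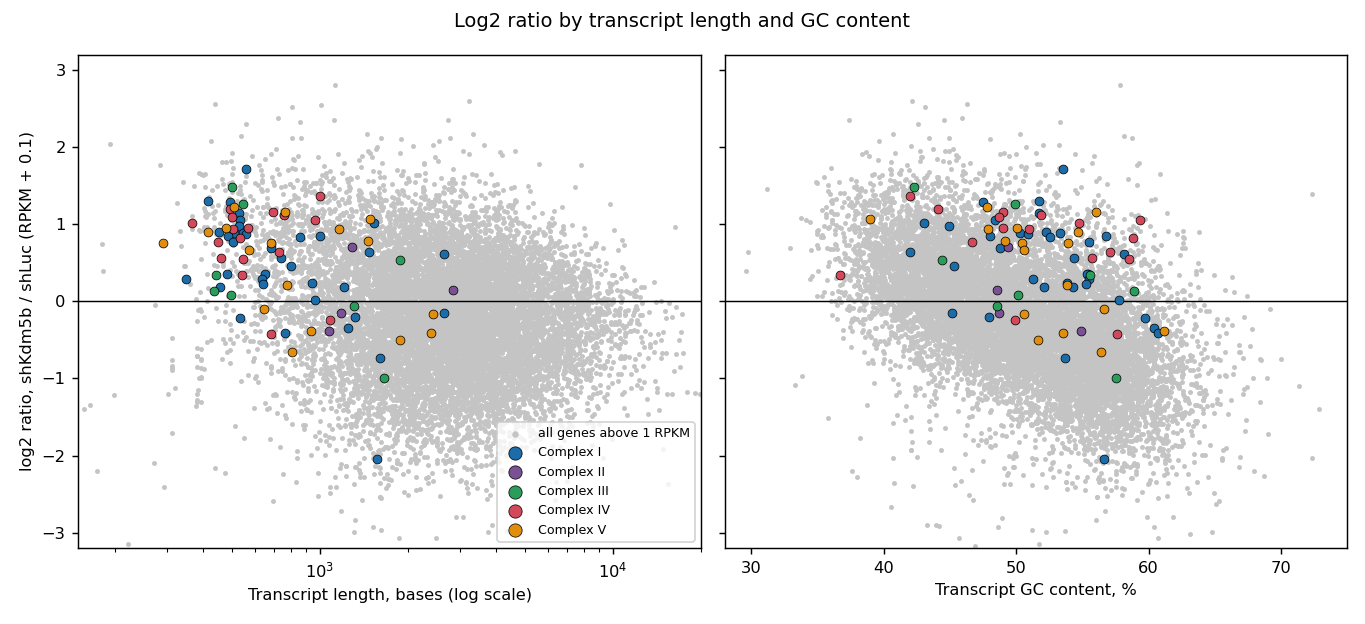
Log2 ratio of shKdm5b to shLuc (y axis) against transcript length in bases on a log scale (left) and transcript GC content in percent (right), for all genes above 1 RPKM (grey) and respiratory chain genes (coloured by complex). Of all genes 167 lie outside the plotted range, none of them a respiratory chain gene. Transcripts of at most 600 bases include 26 respiratory chain genes above 1.5-fold, and the grey cloud descends with GC content.

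With both curves taken out, the 16 higher genes were all among the 43. They included *Ndufa11*, *Ndufa6*, *Ndufc1* and *Ndufa2* of complex I, *Cox7a2*, *Cox6a1*, *Cox7a1*, *Cox4i2* and *Ndufa4l2* of complex IV, and *Atp5j*, *Atp5c1*, *Atp5f1* and *Atp5k* of complex V. The 4 lower genes were *Ndufv1*, *Atp5g1*, *Uqcrq* (-0.61) and *Cox7b2* (-1.04), of which the first pair was also lower by the deposited RPKM. *Cox7b2* had a log2 ratio of 0.34 by the deposited RPKM (interval -0.32 to 1.09, from 33 and 40 reads), and *Uqcrq* one of 0.09, so both turned direction with the curves. Of the 36 genes with no 50-base window shared with another gene, 17 were higher and 2 lower by the deposited RPKM (median 0.56). Of the 36 genes with more than 5% of their windows shared, 22 were higher and 1 lower (median 0.78). A gene on the opposite strand overlaps 30 of the 85, and whether reads were counted by strand is not stated.

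By the deposited RPKM, genes that work with the chain did not all follow its subunits. Over all genes tested, 16.3% were higher and 32.0% lower (median -0.21). Median transcript lengths were 1829 bases for assembly factors, 1036 for mitochondrial ribosomal proteins, 2448 for biogenesis regulators and 2175.5 for the TCA cycle. That of the respiratory chain genes was 679. Ratios of these lists are given without the length and GC curves taken out, and the part of length and GC content was not tested. Of 9 electron carriers and further subunits, 6 were higher and 1, *Cyc1*, lower (median 0.84). The highest were *Usmg5*, a small ATP synthase subunit (16.9 and 49.4 RPKM, log2 ratio 1.54), *Atpif1*, the inhibitor of the ATP synthase (148 and 391 RPKM, log2 ratio 1.40), and *2010107E04Rik*, which encodes another small ATP synthase protein (38.1 and 82.0 RPKM, log2 ratio 1.10). The electron-transferring flavoprotein genes *Etfb* and *Etfdh* had log2 ratios of -0.52 and 0.32. Of 27 expressed assembly factors, which build the complexes, 5 were higher (18.5%) and 6 lower (22.2%), with a median of -0.09. The highest were the complex IV factors *Cox16*, *Cox17* and *Cox18* (log2 ratios 1.35, 1.08 and 0.62), and the lowest were *Foxred1* and *Acad9*, factors of complex I, and *Cox19* (-0.87, -0.80 and -0.77).

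The products of 76 mitochondrial ribosomal protein genes translate the mitochondrially encoded subunits. Of these genes, 21 were higher (27.6%, against 16.3% of all genes) and 9 lower (11.8%, against 32.0%), with a median of 0.14. They ranged from *Mrps33*, *Mrpl33* and *Mrps36* (log2 ratios 1.62, 1.58 and 1.21) to *Mrpl19*, *Mrps11* and *Mrpl10* (-1.25, -0.96 and -0.80). Regulators of mitochondrial biogenesis differed in both directions, with 4 of 13 higher and 5 lower (median 0.28). That is 30.8% and 38.5%, against 16.3% and 32.0% of all genes. The ratios of single regulators below are given without the length and GC curves taken out. *Tfam*, which packages mitochondrial DNA and starts its transcription, had 12.7 and 27.6 RPKM (log2 ratio 1.12), and *Mterf* and *Yy1* had log2 ratios of 0.87 and 0.72. *Polrmt*, the mitochondrial RNA polymerase, had 9.68 and 3.16 RPKM (log2 ratio -1.59), and the nuclear receptor *Esrra* and the DNA polymerase *Polg* had log2 ratios of -1.55 and -1.33. Of the factors whose motif letters were searched above, *Nrf1* had 16.8 and 9.08 RPKM (-0.88) and *Gabpa* had 35.4 and 48.3 RPKM (0.45), and this pair is named because of that search.

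Of 14 TCA cycle genes, which supply NADH and succinate to the chain, 1 was higher and 4 lower (median -0.15). That is 7.14% and 28.6%, against 16.3% and 32.0% of all genes. *Sucla2* was the higher one (20.7 and 36.8 RPKM, log2 ratio 0.83), *Dld* and *Idh3g* followed at 0.51 and 0.08, and *Ogdh*, *Dlst* and *Suclg1* were the lowest (-0.66, -0.66 and -0.63). The carriers and porins of the mitochondrial membranes, which exchange ATP, phosphate and metabolites, had 0 of 8 genes past the threshold in either direction (median 0.09). In this list *Vdac2*, *Slc25a31* and *Slc25a4* had the highest log2 ratios, at 0.58, 0.32 and 0.23, and *Vdac1*, *Ucp2* and *Slc25a3* the lowest, at -0.46, -0.37 and -0.05.

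**Figure D5:**
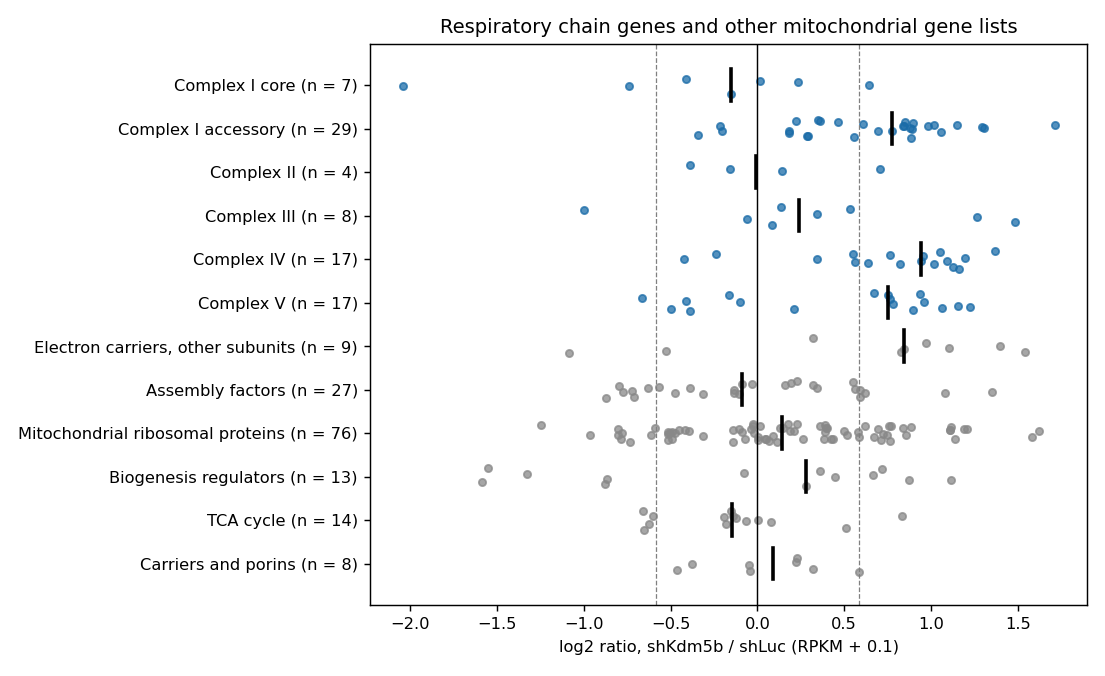
Log2 ratio of shKdm5b to shLuc (x axis) for the expressed genes of each respiratory complex (blue) and of other mitochondrial gene lists (grey), with black bars at the medians and dashed lines at 1.5-fold. Points are genes, spread vertically for legibility. The medians of the complex I accessory genes (0.77), complex IV (0.94) and complex V (0.75) lie to the right of those of the TCA cycle (-0.15) and the assembly factors (-0.09). No length or GC curve is taken out here. Transcripts of the TCA cycle and the assembly factors were longer (median 2175.5 and 1829 bases) than those of the respiratory chain genes (679 bases).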

How the data were processed

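Polyadenylated RNA of shLuc and shKdm5b R1 ES cells at 72 h without LIF was sequenced in 1 library per condition, with reads of 50 bases. The authors deposited a read count, a length and an RPKM value for each RefSeq transcript entry. The deposited counts, lengths and RPKM values give library totals equal to the number of aligned reads in the deposited lists of reads. The submitters' processing notes name Bowtie 0.12.7, CASAVA 1.0 and the build mm8. The counting program is not given in the sources used here, and a further column of small whole numbers was not used because its meaning is not stated.

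Of 27405 entries, the 1 of highest mean RPKM stood for each of 21935 symbols (7 of the 85 genes had several). Log2 ratios were taken on the log2(RPKM + 0.1) scale. The thresholds were a fold change above 1.5 and, in 1 library or both, an RPKM above 1. Without replicates, no variance could be estimated, and edgeR 4.0.16 (R 4.3.3) was run only as an alternative, by its exact test on the counts at an assumed dispersion of 0 or 0.04 and an FDR below 0.001. Lowess curves (fraction 0.3, statsmodels 0.14.6) over log transcript length, or over GC content and then length, were fitted on expressed genes and taken out as further alternatives. GC content came from GENCODE transcripts of GRCm38 (97.1% of symbols, and all 85 respiratory chain genes), which is not the build of the alignment, so coordinates describe the genes and not the reads. With these library totals 3 reads on a 1 kb transcript make 0.0384 (shLuc) and 0.0413 RPKM (shKdm5b). Intervals are exact Clopper-Pearson intervals at 95%. Motif letters were sought on both strands of the promoter windows.

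The genes named were all core subunits of complex I, all of complex II, the tissue isoforms, the c ring genes, the 3 most abundant and the 3 highest and lowest log2 ratios of each complex, and the 3 highest and lowest of each other mitochondrial list. A core subunit gene that this rule takes in is not reported here. Further genes named to complete a complex or a list were chosen after their values were seen. The genes, lists and thresholds were chosen with earlier results of these data known. The steps were tested on simulated data. Python 3.11.15, pandas 2.3.3, NumPy 2.4.6, SciPy 1.17.1 and matplotlib 3.10.9 were used.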

Additional observations from a re-analysis of the deposited data

How the results depend on the processing

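With 1 library per condition nothing separates a difference between conditions from one between libraries, and no library could be left out. No paired analysis was possible because shLuc and shKdm5b have 1 library each. Counts of higher and lower genes and the median log2 ratio of the respiratory chain genes were 43, 4 and 0.64 by the deposited RPKM. They stayed within 1.5 times these counts with a pseudocount of 1 (41, 4 and 0.60) or 0.01 (43, 4 and 0.66), with the entries of a symbol summed (43, 4 and 0.64), without a filter (43, 4 and 0.61) and with an RPKM above 11 (41, 4 and 0.64). Scaling to a median log2 ratio of 0 gave 48, 2 and 0.80, and scaling to the same 75th percentile gave 47, 3 and 0.72. Taking out the length curve gave 23 (22 of them among the 43), 6 and 0.31, and taking out the GC and length curves gave 16, 4 and 0.24. These curves also remove any regulation that follows length or GC content. Ndufb3 (-0.081) and Cox7c (-0.234), higher by the deposited RPKM, turned direction with the GC and length curves, and so did genes within the thresholds, of which Uqcrq (-0.61) and Cox7b2 (-1.04) then passed as lower. The cause was not tested. A fold change above 2 left 18 higher genes and 1 lower gene. The edgeR exact test kept 43 and 4 at an assumed dispersion of 0, and 1 (Ndufa6) and 1 (Ndufv1) at 0.04, where 0.898% and 1.41% of all genes were called. All medians of complexes I, IV and V stayed above 0 under these settings.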
